A study of Mus musculus with 4 samples.

Results

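Rpl34 encodes a protein of the large subunit of the cytosolic ribosome. Every event of this gene in the splicing table and its values in the expression table were taken, which gave 1 event of 1223 and 1 gene of 988, and it was set against the other symbols of the form Rpl or Rps. The gene was chosen by its RPKM and its splicing value in these same libraries, so both are described here without a test. RNA came from testes of male C57BL/6 mice at postnatal day 25. There were 2 libraries labelled Ptbp2-deficient through a conditional knockout (cKO) and 2 labelled wild type (WT), with 1 mouse per library. The labels name no Cre driver and no cell type in which Ptbp2 was deleted.

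Ribosomal protein genes are transcribed in nearly every cell, and their products are assembled with ribosomal RNA into the subunits that translate mRNA. Their introns are removed by the spliceosome, and a transcript that keeps an intron can meet a stop codon early. The protein made from Ptbp2 belongs to the polypyrimidine tract binding family, which acts on splicing by binding pyrimidine-rich RNA. In the mouse testis it is expressed in germ cells.

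The Rpl34 event is a retained intron on chromosome 3, minus strand, at chr3:130431969-130432220 in coordinates taken as mm9. Its span of 252 nt equals that of exon 2, the next intron and exon 3 in the GENCODE M21 transcript Rpl34-201, which measure 74, 78 and 100 nt, and no other neighbouring exon pair of the gene has this length. The annotated transcript Rpl34-204 keeps exactly this intron. Its sequence is shown here from the start codon to the end of exon 3 (GRCm38 chr3:130729051-130729293, minus strand, 243 nt), because it holds both splice sites of the event. Capitals mark the intron.
Rpl34 intron retained: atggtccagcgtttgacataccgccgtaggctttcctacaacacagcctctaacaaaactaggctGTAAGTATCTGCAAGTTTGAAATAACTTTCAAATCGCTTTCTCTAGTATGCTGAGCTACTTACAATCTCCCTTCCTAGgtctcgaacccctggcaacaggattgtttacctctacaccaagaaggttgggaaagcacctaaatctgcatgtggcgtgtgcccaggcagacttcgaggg

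The start codon lies in exon 2, which holds 65 coding bases. Read on into the intron, the frame met a TAA stop codon after 22 codons, beginning at base 2 of the intron. In the spliced form, exons 2 and 3 held no in-frame stop, and the whole coding sequence had 117 codons before its stop.

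**Figure D1:**
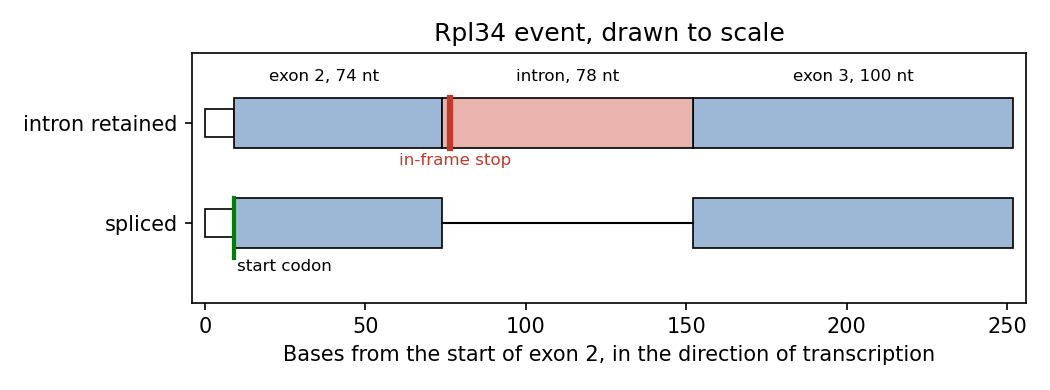
Exon 2, the intron and exon 3 of Rpl34 to scale, in bases from the start of exon 2; blue is coding in the spliced form, white is untranslated, pink is the intron, and the green and red bars are the start codon and the early stop, with the form that keeps the intron above the spliced form. The stop codon of the form that keeps the intron lies at the start of the 78-nt intron.

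Coding sequences nearly identical to Rpl34 are present elsewhere in the mouse genome without this intron. In a search of the GENCODE M21 transcripts with the 351-nt coding sequence, 19 other genes, all annotated as processed pseudogenes, matched over at least 90% of its length. Of these, 5 matched along the whole length without gaps at 97% identity or more. Rpl34-ps1 on chromosome 6 differed at 2 bases, T132C and C318G, counted from 1 at the A of the start codon with the Rpl34 base first. Gm10154 on chromosome 4 differed at 4 bases. The 60 bases around the junction of exons 2 and 3 show this, with the last and first 3 bases of the exons in capitals.
Rpl34 spliced: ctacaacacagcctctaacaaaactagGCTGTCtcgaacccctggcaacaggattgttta
Rpl34-ps1: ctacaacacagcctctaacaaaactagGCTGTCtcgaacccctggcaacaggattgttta
Gm10154: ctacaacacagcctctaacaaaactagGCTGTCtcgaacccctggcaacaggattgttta

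The 3 stretches are the same letter for letter, so a read within them cannot be assigned to Rpl34 or to either copy by its sequence. None of the 19 copies is in the expression table or the splicing table. How the authors placed such reads is not given in the sources used here, and the RPKM of Rpl34 is uncertain to that extent. The stretch spans the junction of the spliced form, so the splicing value of the event is uncertain in the same way.

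Across the table, 925 of 988 genes (93.6%) had a deposited log2 fold change below 0 and 63 one above 0. Ptbp2 itself was at 111 and 98.2 RPKM (reads per kilobase of transcript and per fixed number of mapped reads) in libraries 1 and 2 labelled cKO, against 65.7 and 66.6 RPKM in WT libraries 1 and 2. It was thus higher where the label gives a knockout, with no overlap, which holds for 100% of the genes in the table. The difference of 0.65 ± 0.27 (SE) on the log2(RPKM + 1) scale did not pass in limma with Benjamini-Hochberg (BH) adjustment (adjusted p = 0.0684). A value for the whole gene cannot tell a deleted stretch from what remains, so it does not check the labels. Germ cell genes such as Ybx2, an RNA-binding protein gene, were abundant, at 320 and 264 RPKM in the libraries labelled cKO and 563 and 561 RPKM in WT. Of 20 listed spermatocyte genes 3 are in the table, all with a negative deposited fold change, and of 13 macrophage genes 4 are, 3 with a positive one. Inha of 14 Sertoli cell genes and Hsd3b1 of 9 Leydig cell genes are in it, both with a positive one, and 0 of 16 spermatogonia genes are. The second library labelled cKO stood apart from the first, with the higher RPKM in 9.92% of genes.

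Rpl34 was at 6.12 and 7.50 RPKM in libraries 1 and 2 labelled cKO, against 168 and 158 RPKM in WT libraries 1 and 2. The genotypes did not overlap, and the replicates of each lay close together. The mean was 6.81 ± 0.976 RPKM in the libraries labelled cKO and 163 ± 7.18 RPKM in WT (SD, n = 2 each), so that the libraries labelled cKO kept 4.18% of the WT level. The log2 fold change in the authors' deposited table was -4.58. On the log2(RPKM + 1) scale the difference was -4.40 ± 0.28 (SE). This SE and the others given here are those of limma, which draws the spread of each gene towards that of all genes of the table. The deposited table holds only genes that differ, and 100% of its 988 genes separate the genotypes without overlap, so the separation of Rpl34 adds nothing to its selection.

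By mean RPKM, Rpl34 stood 419th of 988 genes in the libraries labelled cKO and 33rd in WT. In the table's order of deposited log2 fold change it was the 8th from the lowest. Of the 5 genes on each side of it in that order, 3 encode proteins of spermatid chromatin, Prm1, Tnp1 and Tnp2. Prm1, a protamine gene, was at 19.1 and 4.16 RPKM in libraries 1 and 2 labelled cKO, against 253 and 411 RPKM in WT libraries 1 and 2. Tnp1, which encodes a transition protein of spermatid chromatin, was at 26.0 and 2.59 RPKM in the libraries labelled cKO, against 320 and 477 RPKM in WT. In both genes the second library labelled cKO was the lower and the second WT library the higher. Rpl34 went the other way in both genotypes, and by small amounts.

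**Figure D2:**
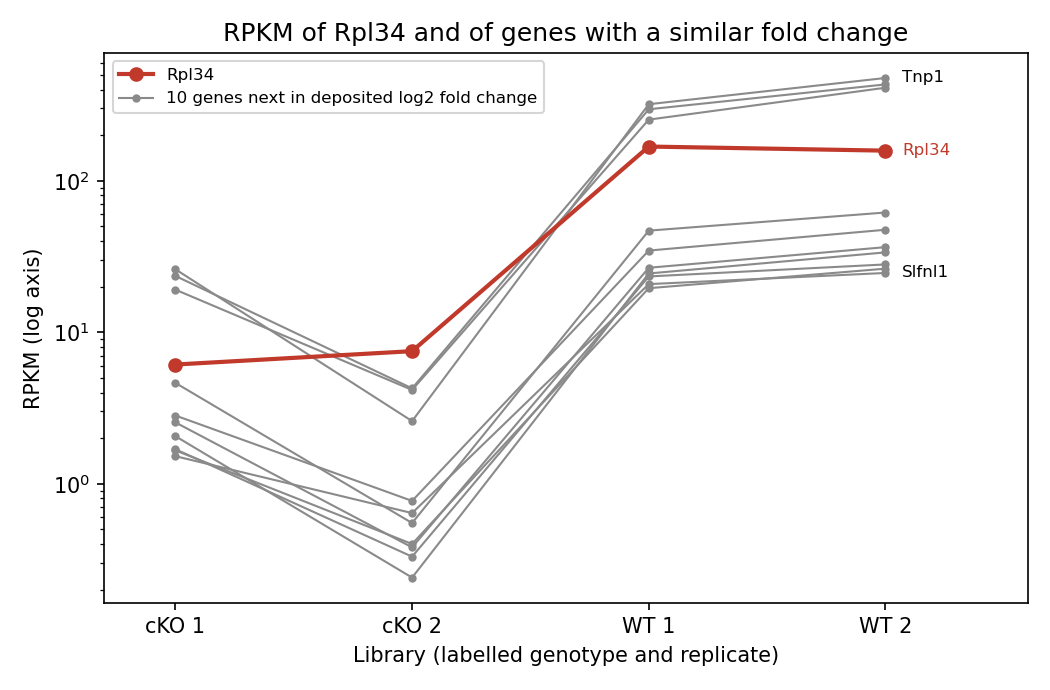
RPKM on a log axis in each library, with lines joining the values of a gene; red is Rpl34 and grey are the 5 genes directly above and the 5 directly below it by deposited log2 fold change. Rpl34 lies at 6.12 and 7.50 RPKM in the libraries labelled cKO, where each grey gene is lower in library 2 than in library 1.

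Most genes of the table had a lower RPKM in the second library labelled cKO than in the first, and Rpl34 did not share that difference. Its log2 ratio of RPKM in library 2 over library 1 labelled cKO was 0.29, against a median of -0.85 over all 988 genes, with quartiles of -1.90 and -0.38. In the table as a whole 9.92% of genes were higher in library 2. Of the 63 genes with a positive deposited log2 fold change 51 were, with a median log2 ratio of 0.45. The median was -0.92 in the 925 genes with a negative one. Of the 925 genes with a negative deposited log2 fold change, 47 were higher in library 2, and 15, Rpl34 included, had a ratio at least as high as that of Rpl34. Of the 458 genes at -2 or lower, 11 were higher in library 2, the highest being Zswim2 with a log2 ratio of 0.71. Among the 177 genes at -3 or lower, Rpl34 was the only one. The next among these 177 was C030037D09Rik with a log2 ratio of -0.30, and the median of the set was -2.31. With a pseudocount of 1 the median of the set was -1.54, and the ratio of Rpl34 was 0.26. The WT libraries had a log2 ratio of -0.09 in library 2 over library 1 for Rpl34, against a median of 0.22 in that set, of which 7 genes including Rpl34 were lower in WT library 2. With 1 library on each side, these ratios have no test.

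**Figure D3:**
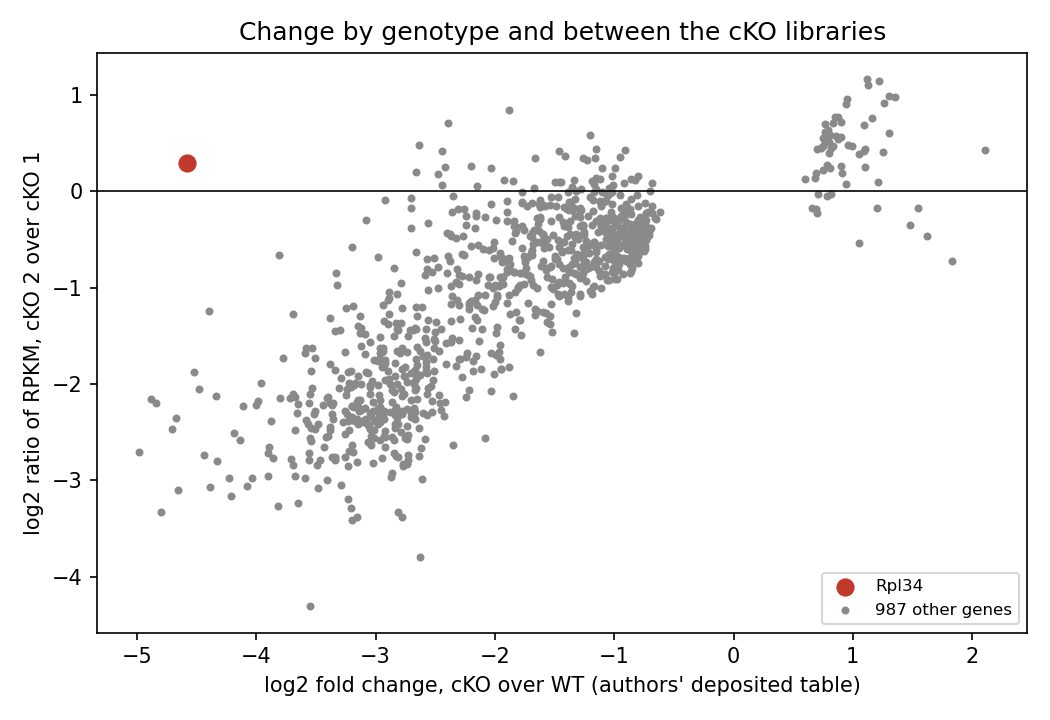
Each point is a gene, with its deposited log2 fold change of cKO over WT on the x axis and the log2 ratio of RPKM in library 2 over library 1 labelled cKO on the y axis. Rpl34, in red, is at -4.58 and 0.29, where the other genes of a similar fold change lie below 0.

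Markers of spermatids, the cells that follow meiosis, moved with the same contrast. Of 30 listed spermatid genes, 25 are in the table, and limma called each of the 25 lower in the libraries labelled cKO (83.9% over the table). Their summed RPKM was 351 and 87.4 in libraries 1 and 2 labelled cKO, against 2353 and 3106 in WT libraries 1 and 2, and none is at 0. All 25 were lower in library 2 than in library 1 labelled cKO and higher in WT library 2 than in WT library 1, with a median log2 ratio of -2.21 between the libraries labelled cKO. Over the table, 9.92% of genes were higher in library 2 labelled cKO, and 201 of 988 were higher in WT library 1 than in WT library 2. The part of the cell mix in the values of Rpl34 was not tested. In bulk testis RNA, fewer cells of a type and less RNA per cell cannot be told apart.

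By the root mean square difference of log2(RPKM + 1), centred on each gene over the 4 libraries, the genes most like Rpl34 were 1700031M16Rik, Slfnl1, Spem1, 1700015G11Rik, 1700008A04Rik, 4931407G18Rik, Prss37, Iqcf1, H2afb1 and Banf2. Spem1 is a spermatid maturation gene, and H2afb1 encodes a histone variant. The differences from Rpl34 were 0.51 to 0.68 on the log2 scale. All 10 were lower in library 2 than in library 1 labelled cKO, with log2 ratios from -3.10 to -1.25, and all 10 were higher in WT library 2. Over the table, 9.92% of genes were higher in library 2 labelled cKO, and 201 of 988 were higher in WT library 1 than in WT library 2. The 10 were at 0.24 to 0.77 RPKM in library 2 labelled cKO, near the table's lowest value of 0.2 RPKM. Their WT means of 21.6 to 41.0 RPKM lie below the 163 RPKM of Rpl34. Ranked by Pearson correlation instead, 0 of these 10 were among the 10 most like it, so the list is that of this measure.

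No other gene of a cytosolic ribosomal protein is in the expression table. Of 53 listed genes of the large and 35 of the small subunit, Rpl34 was the only one found there, and 0 of 52 ribosome assembly genes were found. The table holds only genes past the authors' selection, so values of the other ribosomal protein genes were not analysed here. The symbol Rps6ka2 also begins with Rps but is that of a ribosomal S6 kinase. It was at 12.4 and 18.5 RPKM in the libraries labelled cKO, against 8.98 and 7.98 RPKM in WT, a difference of 0.77 ± 0.32 (SE) on the log2(RPKM + 1) scale, and it did not pass in limma with BH adjustment over all 988 genes (adjusted p = 0.0702). Over the table, limma called 83.9% of genes lower and 1.92% higher at an adjusted p under 0.05.

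Upf1, the helicase of nonsense-mediated decay, which degrades transcripts with an early stop codon, is the only 1 of 19 genes of that pathway in the expression table. It was at 41.3 and 35.3 RPKM in libraries 1 and 2 labelled cKO, against 24.2 and 23.1 RPKM in WT libraries 1 and 2. Both libraries labelled cKO were higher, without overlap, as 100% of the genes in the table separate the genotypes. The difference was 0.67 ± 0.27 (SE) on the log2(RPKM + 1) scale, with an adjusted p of 0.0662 in limma. Over the alternative settings the adjusted p ranged from 0.00185 to 0.477 for Upf1 and from 0.00105 to 0.450 for Rps6ka2. The low ends come from fits without 1 library labelled cKO, in which the spread is that of the WT libraries alone, the lone library is assumed to vary like them, and all 988 genes passed. These passes say nothing of either gene. In the splicing part of the authors' deposited tables that pathway holds cassette exons of Magohb (ΔPSI 18) and Upf3b (-10).

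In the authors' deposited table the Rpl34 intron had a ΔPSI of -40 percentage points, where ΔPSI is a difference in percent spliced in. The file header does not state which genotype was subtracted, so the sign is not read as more or less retention. The value comes without coverage, a p-value or values of single libraries. Its size is uncertain too, since reads within the junction stretch shared with the copies cannot be assigned by their sequence. By size, whatever the sign, 59 of all 1223 events were larger, and 1 of the 197 retained introns was. In the authors' deposited table that larger retained intron was the one of Pfkfb3, a gene of glycolytic control, at -52. In signed order the next in the authors' deposited table were Ncrna00085 at -36, 4930404N11Rik, Sugp2 and Tmem191c at -35 each, and Btbd9 at -27. By size, the positive values of Itsn2 at 33 and 2310022A10Rik at 31 come before Btbd9. The median over the 197 retained introns was -8, with quartiles of -13 and -3, and 88.3% were negative, against 59.4% of all 1223 events. An absolute ΔPSI of 20 points or more was reached by 13.2% of retained introns and 21.0% of all events, and the smaller deposited table also lists the Rpl34 event at -40.

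**Figure D4:**
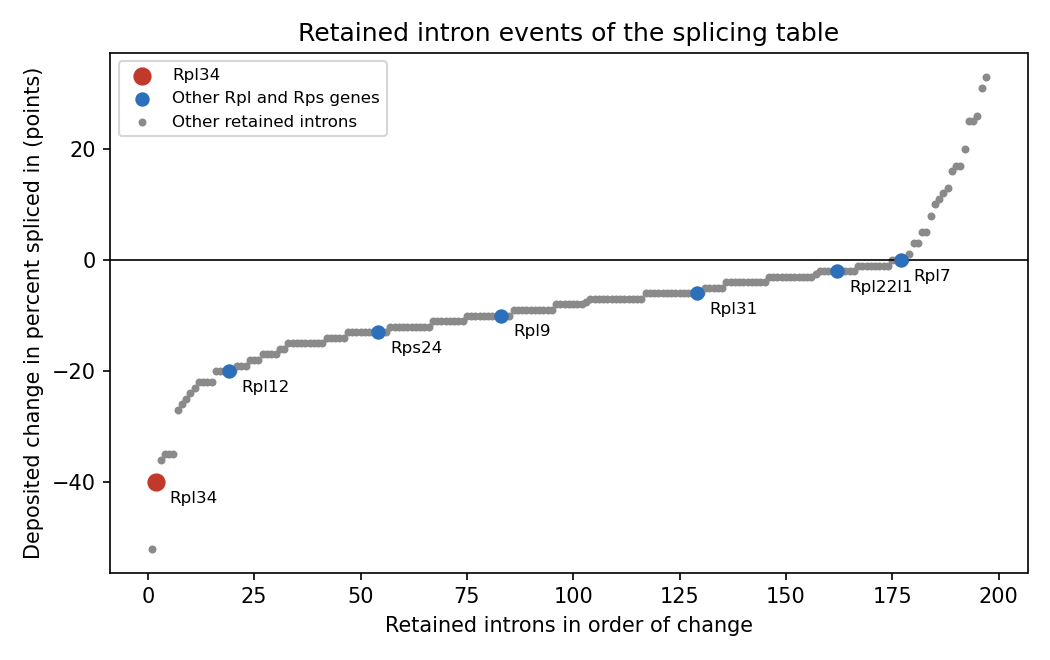
The 197 retained introns in order of ΔPSI, in percentage points on the y axis; red is Rpl34, blue are the other Rpl and Rps genes and grey are all others. Rpl34 at -40 is below Rpl12 at -20, the next of the ribosomal protein genes.

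Events were listed in 6 other ribosomal protein genes, and retained introns were the most frequent type among them. In the authors' deposited table the retained introns had a ΔPSI of -20 in Rpl12, -13 in Rps24, -10 in Rpl9, -6 in Rpl31, -2 in Rpl22l1 and 0 in Rpl7. With Rpl34, 6 of 7 were negative, near the 88.3% of all retained introns. The remaining events in the authors' deposited table were a cassette exon of Rpl12 (-1), which lies within the span of its retained intron, and 2 cassette exons (-3 and -8) and an event coded taca (-15) of Rps24, which lie within the span of its own. The events of each of these genes thus share sequence and are not separate measurements. Rpl12 was the only other of the 7 genes with an event of 20 points, and none of the 6 is in the expression table.

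The retained introns of Rpl31 and Rpl7 could be identified by their span in the same way. The Rpl31 intron has 235 nt (GRCm38 chr1:39371067-39371301, plus strand) and the Rpl7 intron has 175 nt (GRCm38 chr1:16103335-16103509, minus strand), both longer than the 78 nt of Rpl34. Their donor and acceptor sites are set beside those of Rpl34, since these 3 introns range from a ΔPSI of -40 to 0. Capitals mark the first 20 and the last 30 bases of the intron.
Rpl34 donor: aaactaggctGTAAGTATCTGCAAGTTTGA
Rpl31 donor: acattcaaaaGTAAGTATCCCAGCGTTCCG
Rpl7 donor: cctgaagacaGTAAGTAAACTTTGGAGGTC
Rpl34 acceptor: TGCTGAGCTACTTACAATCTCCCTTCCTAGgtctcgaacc
Rpl31 acceptor: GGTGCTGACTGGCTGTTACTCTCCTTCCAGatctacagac
Rpl7 acceptor: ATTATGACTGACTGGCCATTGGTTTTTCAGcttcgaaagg

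All 3 introns open with GTAAGT and close with AG. Of the last 30 bases, 66.7% were C or T in Rpl34, 63.3% in Rpl31 and 56.7% in Rpl7. The median over 14720 annotated introns that lie within an exon of another transcript was 63.3%, with quartiles of 56.7% and 70.0%. Over the whole intron of Rpl34, 59.0% of bases were C or T, against a median of 51.9% and an upper quartile of 59.0% over 80 such introns of the same length.

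Short pyrimidine motifs that polypyrimidine tract binding proteins are known to bind were searched in the sense of the transcript only, with overlapping matches counted. TCTT was not found in the Rpl34 intron, and 51.2% of the 80 introns of 78 nt hold it. TTCT, which can overlap TCTT, was found once, and 51.2% of those introns hold it. CTCTCT was not found, and 7.50% of them hold it. CCTT was found once, and 42.5% of them hold it. The TTCT of this intron is the start of the longer stretch TTCTCT, which was not among the motifs searched. These counts describe the letters of this intron and say nothing of the binding of Ptbp2.

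Rpl34 was 1 of 14 genes with a retained intron that are also in the expression table, out of 188 genes with such an event. It had both the lowest deposited log2 fold change and the most negative ΔPSI of them. The 13 others had a median of -1.62 in log2 fold change and 14 events with a median of -12.5 in ΔPSI in the authors' deposited tables. In the authors' deposited tables Izumo1, which encodes a sperm protein that binds the egg, was at -2.81 in log2 fold change and at -26 in ΔPSI. In the authors' deposited tables Tmem191c was at -2.59 in log2 fold change with 2 events, at -35 and -20 in ΔPSI. Ncrna00085 was near Rpl34 in ΔPSI, at -36, and at -1.62 in log2 fold change in the authors' deposited tables. The gene 1700029G01Rik was at -2.82 in log2 fold change and at -6 in ΔPSI in the authors' deposited tables.

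Of the 14 genes, 12 are named here, the 8 with the lowest and the 4 with the highest deposited log2 fold change, and 2 between them are not. Besides those above, the named genes were 2810408A11Rik, 1700026L06Rik, Arhgef2, E230008N13Rik, Kif2c, Dnajb2 and Srrt, with log2 fold changes of -2.24, -2.16, -1.65, -0.98, -0.81, -0.72 and 0.69 in that order in the authors' deposited table. Srrt, an RNA-processing gene, was the only one of the 14 listed as higher and the only one with a positive ΔPSI, of 3. In limma with BH adjustment, 11 of the 13 genes other than Rpl34 were called lower, against the 83.9% over the table, while Dnajb2 (adjusted p = 0.0714) and Srrt (0.0616) did not pass. With the replicate block 8 of the 13 genes were called, against 622 lower and 2 higher of all 988 genes of the table. In fits without 1 library the spread is that of the other genotype alone, so calls from them are not compared for these genes. Library 2 labelled cKO had the lower RPKM of the pair in all 13 genes, and the higher one for Rpl34. Over the table it had the higher one in 9.92% of genes.

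**Figure D5:**
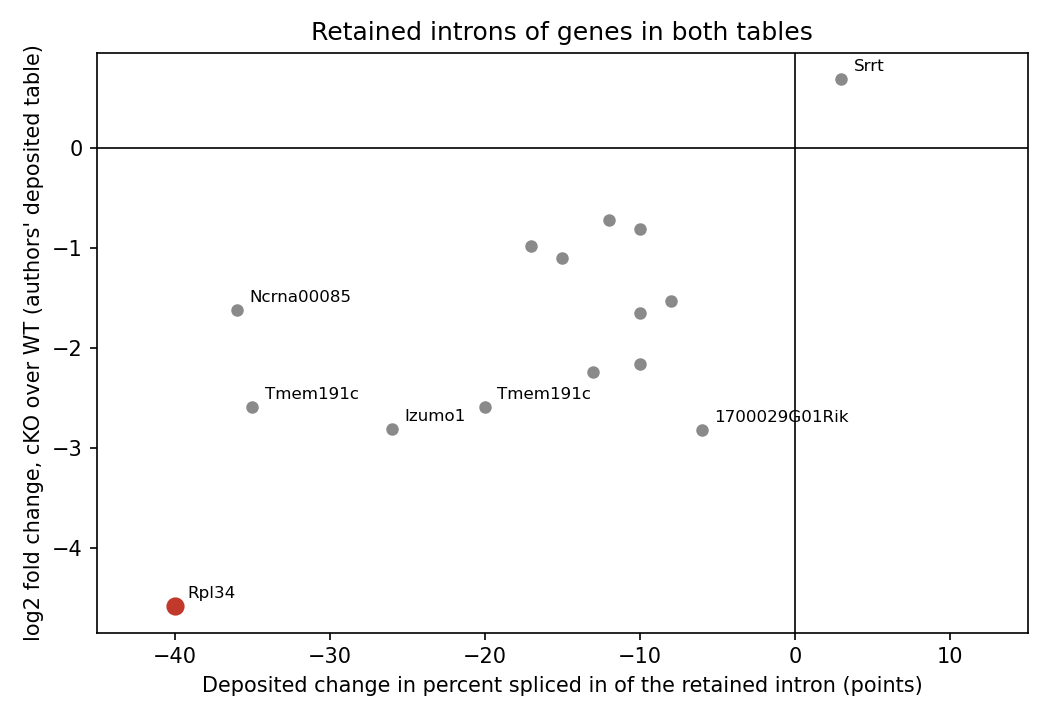
The 15 retained introns of the 14 genes in both deposited tables, with ΔPSI in percentage points on the x axis and log2 fold change of cKO over WT on the y axis. Rpl34, in red, is at -40 and -4.58, and the other genes lie above it.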

How the data were processed

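RNA of 4 mouse testes was sequenced, 2 labelled cKO and 2 WT, as paired-end ScriptSeq libraries, per the labels' protocols, which name both poly(A) selection and rRNA depletion. The authors deposited RPKM per library and per genotype mean, a log2 fold change and an adjusted p-value for 988 genes, per the file headers. Their 1223 splicing events each carry 1 ΔPSI, a score in percentage points that the authors deposited without replicates. Which aligner, splicing caller and tests were used is not given in the sources used here, and the submitters' processing notes name mm9 and mm10. RPKM has 2 decimals and a lowest value of 0.2, so single reads were not resolved and depth is unknown. Rows without a gene name (308 events) took the name above them. Event starts count from 0 and were printed from 1. Of 179 retained introns in annotated genes, 137 have the span of a neighbouring exon pair in GENCODE M21 and 4 have its GRCm38 coordinates, so events were taken as mm9 and matched by length only.

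limma 3.58.1 (R 4.3.3) was run on log2(RPKM + 1) of all 988 genes without a block, with BH adjustment and a threshold of 0.05, and was tested on simulated data. The table was selected by the authors on these libraries, so the calls are not independent evidence. An exact permutation test (two-sided) of 2 mice per genotype cannot go below 0.333. The mice are separate animals, so the spread between libraries includes that between mice. Sequences are GENCODE M21 transcripts (GRCm38), searched with BLAST 2.17.0. Python 3.11.15, numpy 2.4.6, pandas 2.3.3 and matplotlib 3.10.9 were used. The gene, the lists and the naming rule were chosen with earlier results of these data known. The rule named the ribosomal protein, translation and decay genes found, the 10 genes most like Rpl34, its 5 neighbours on each side by fold change or ΔPSI, the genes most abundant in WT, deposited genes near it on the chromosome, and, of the genes in both tables with a retained intron (over 12), the 8 with the lowest and the 4 with the highest fold change.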

Additional observations from a re-analysis of the deposited data

How the results depend on the processing

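The log2 difference of Rpl34 was -4.57 with a pseudocount of 0.1 and ranged from -4.53 to -4.27 with 1 library left out. With the replicate block it stayed at -4.40, with an SE of 0.57 against 0.28 in the main fit. The limma count of lower genes was 312 of 494 above the median RPKM and ranged from 353 to 925 with 1 library left out, and that of higher genes was 1 above the median RPKM, 2 with the replicate block and ranged from 0 to 63. With 1 library left out, the lone library of its genotype is assumed to vary like the other genotype, and without either library labelled cKO all 988 genes passed. At an unadjusted p under 0.05, 0 genes were higher without WT library 1 and 1 without WT library 2. The replicate numbers name different mice, and the differences between libraries 1 and 2 correlated at -0.33 over genes between the genotypes. With the numbers crossed, a choice made after seeing the data, limma called 758 lower and 10 higher genes. Of the 10 genes most like Rpl34, 3 were shared with a pseudocount of 0.1, 0 by Pearson correlation and 4 above the median RPKM. By the written list, 0 other ribosomal protein genes are in the expression table. Requiring an absolute ΔPSI of 40 left 1 gene in both tables. The causes were not tested. The Rpl34 event was second among retained introns with 1 event per gene, among events of 20 points or more and in the smaller table. The first 2 of these settings drop only smaller events, so they could not change its place. The smaller table holds 257 events, as many as reach 20 points, so it is no separate check. Depth is unknown, which limits every RPKM near the low end.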

Other observations

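Translation genes outside the ribosomal proteins were listed in the splicing table only. Of the translation factors, 9 genes had 14 events, 7 negative and 6 positive, with a median ΔPSI of -0.5. In the authors' deposited table the largest by size was an event coded taca of Eef1d, an elongation factor subunit, at 26, followed by a cassette exon of Eif4e2, a cap-binding protein gene, at 11. Cassette exons of Eif4e (-10) and Eif5a (9.25) came next among genes, in the authors' deposited table. Retained introns of the elongation factor genes Eef1a1, Eef1g and Eef2 had ΔPSI values of 0, -1 and -1 in the authors' deposited table. These genes, like the ribosomal protein genes, have abundant transcripts in most cells. Mitochondrial ribosomal proteins had events in 4 genes, Mrps10 (-18.5), Mrpl30 (-11), Mrpl55 (5.5) and Mrpl24 (-4) in the authors' deposited table, none of them a retained intron.

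Genes beside Rpl34 on the chromosome were mostly outside the expression table. Of the 5 protein-coding genes on each side in the RefSeq annotation (GRCm38.p6), 1 of 10 is in it, Sgms2. This gene, a sphingomyelin synthase gene, was at 2.19 and 1.09 RPKM in the libraries labelled cKO, against 8.93 and 9.36 RPKM in WT. Lef1, directly beside Rpl34, is in the splicing table. Ptbp2 is on the same chromosome. It is not among the 5 genes on either side. Counted in protein-coding genes from Rpl34, with lower coordinates as negative, it is at -55. This made it the furthest of the 10 genes of the expression table nearest to Rpl34. Any bearing of this position on Rpl34 was not tested.

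The 78-nt intron of Rpl34 was among the short ones. Over the 115 retained introns with 1 length matched to the span, the median was 269 nt, and Rpl34 was 18th from the shortest. The 37 introns of 100 nt or less had a median ΔPSI of -6, against -9 in the 78 longer ones. Across these 115 introns, which come from the same 4 libraries, Spearman's rho between length and ΔPSI was -0.15.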
